A study of Mus musculus with 90 samples.

Results

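Melanoma allografts that were still growing were compared by how strongly they expressed 5 pigment cell genes. The arrays were chosen by their own values: of 52 growing tumours, the 13 with the lowest and the 13 with the highest mean log2 value of Pmel, Mlana, Tyr, Tyrp1 and Dct were taken, out of 90 arrays in all. They are called the score-low and the score-high class. One growing tumour was left out before ranking because of its level of Glycam1, a gene of lymph node vessels (11.9 on the log2 scale, against 4.02 to 5.16 in the other 51), and 25 arrays lay between the classes.

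All tumours grew under the skin of mice, and the labels give the genotype Hgftg;Cdk4R24C/R24C and the strain B6.cBrd for every array. In this genotype a transgene supplies Hgf, a growth factor for melanocytes, and Cdk4 carries a change that frees it from its inhibitors. Of the growing tumours, 22 received normal IgG at 10 mg/kg (ControlIgG) and 7 received PBS at 10 ml/kg. Another 23 received an antibody against PD-L1 at 10 mg/kg and went on growing (NonResponder). The labels describe the PD-L1 antibody as a mouse IgG1 with the change D265A, for NonResponder tumours and for the second set alike. A second set was used only as a check: Responder (27), Relapse (6), GrowthDelay (2) and Stabilization (3) tumours, all treated with the antibody against PD-L1 and labelled by how their volume changed. The labels do not say how many tumour lines were grafted or whether different arrays stand for different mice; p-values refer only to the variation among the arrays at hand, which may be technical in part.

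Pigment cells build melanin inside melanosomes, organelles related to lysosomes. Pmel forms the fibrils on which melanin is laid down, Mlana helps Pmel to mature, and the enzymes Tyr, Tyrp1 and Dct carry out the chemistry. The transcription factor Mitf, supported by Sox10, drives most of these genes, and Rab27a with its partners moves finished melanosomes to the cell edge. In melanoma, loss of these genes is often described beside a gain of invasive or neural crest genes such as Axl and Ngfr. The cBrd in the strain name denotes an albino allele of Tyr; whether the tumour cells carried it is not given in the sources used here. Melanin itself was not measured.

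The score separated the classes by little, and all 26 tumours expressed pigment cell genes. The score ran from 10.2 to 10.6 in the low class (mean 10.48, SD 0.16, n = 13) and from 10.90 to 11.08 in the high class (mean 10.96, SD 0.06, n = 13), a difference of -0.47 or 1.39-fold. The arrays just outside the limits had scores of 10.65 and 10.89, next to 10.64 and 10.90 just inside. Mlana accounted for 52.0% of the difference and Pmel for 35.7%. Mlana was 8.48 at the lowest, 9.74 at the median and 10.4 at the highest in the low class, against 10.3, 10.9 and 11.2 in the high class. Pmel was 10.8, 11.5 and 12.4 in the low class, against 12.0, 12.3 and 12.6 in the high class. For both genes the classes overlapped by a few arrays, although these values had chosen the arrays.

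The 3 enzymes of melanin synthesis hardly took part in the ranking. Tyrp1 lay between 13.3 and 13.9 in the low class and between 13.4 and 13.8 in the high class, and gave 5.67% of the score difference. Dct lay between 14.1 and 14.4 in both classes, where the highest value on any array was 14.8, and gave 2.86%. Whether differences of Tyrp1 and Dct are compressed near that upper limit was not tested. Tyr lay between 3.34 and 3.96 in the low class and between 3.41 and 4.09 in the high class, in a table whose values start at 2.19, and gave 3.76%. The tumours are therefore described as low or high in the score, that is mainly in Mlana and Pmel, and not as unpigmented or pigmented. Because these genes chose the arrays, none of them was tested.

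**Figure D1:**
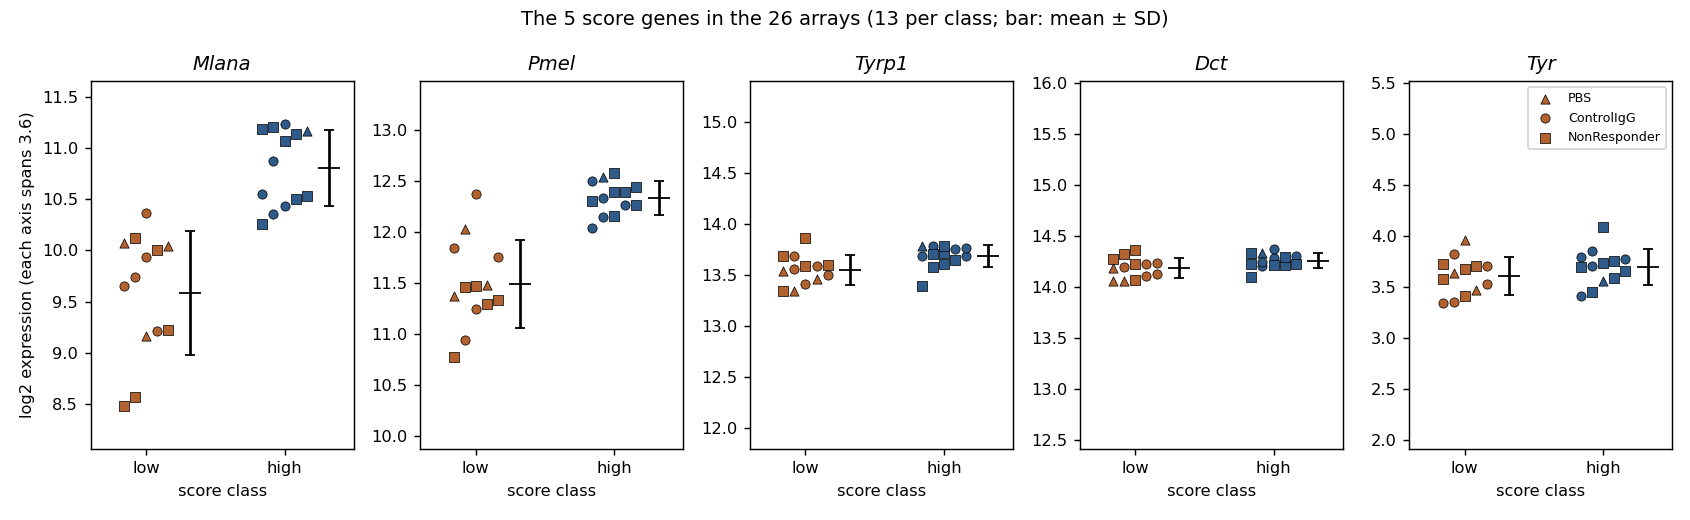
Log2 expression of the 5 score genes in the 13 score-low and 13 score-high arrays. Each point is 1 array, its shape gives the treatment label, the bar shows mean ± SD, and every axis spans 3.6 log2 units. Mlana (means 9.58 and 10.8) and Pmel (11.5 and 12.3) differ between the classes by more than Tyrp1, Dct and Tyr.

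The promoters of pigment cell genes are known for the M-box, a site of Mitf. The letters TCATGTG, searched on both strands so that CACATGA also counts, are shown in capitals below in the 250 bases before the start of 4 genes, from RefSeq on GRCm38.p6. Tyrp1 (chr4:80833963-80834212, plus strand) and Dct (chr14:118052247-118052496, minus strand) are score genes, although they gave little of the score difference. Trpm1 (chr7:64153585-64153834, plus strand) is a pigment gene outside the score that holds the letters. Most such genes with a window lack them (3 of 18 hold them), and so does the other of the 2 Trpm1 windows. Gpm6a (chr8:54779184-54779433, plus strand) is a gene called below.
Tyrp1: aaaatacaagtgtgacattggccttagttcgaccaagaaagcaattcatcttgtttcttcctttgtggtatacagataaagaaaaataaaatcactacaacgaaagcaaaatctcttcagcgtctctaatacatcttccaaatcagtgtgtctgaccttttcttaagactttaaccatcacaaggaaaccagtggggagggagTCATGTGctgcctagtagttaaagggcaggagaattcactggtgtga
Dct: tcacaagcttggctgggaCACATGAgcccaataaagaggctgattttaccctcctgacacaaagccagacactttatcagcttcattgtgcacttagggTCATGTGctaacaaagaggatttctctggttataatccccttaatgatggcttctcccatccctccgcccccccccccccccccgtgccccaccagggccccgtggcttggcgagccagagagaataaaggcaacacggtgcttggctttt
Trpm1: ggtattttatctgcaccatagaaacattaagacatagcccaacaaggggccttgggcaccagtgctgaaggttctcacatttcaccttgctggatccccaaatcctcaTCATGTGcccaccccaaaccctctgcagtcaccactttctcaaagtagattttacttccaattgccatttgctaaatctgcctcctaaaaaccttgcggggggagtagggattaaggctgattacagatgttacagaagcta
Gpm6a: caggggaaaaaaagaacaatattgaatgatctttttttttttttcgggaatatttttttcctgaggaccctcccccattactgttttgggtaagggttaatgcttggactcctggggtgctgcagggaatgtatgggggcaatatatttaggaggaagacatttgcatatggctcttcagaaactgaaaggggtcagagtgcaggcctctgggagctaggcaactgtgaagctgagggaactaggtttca

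In windows of 250 bases before and 50 after the start, the letters were found in 1239 of 32851 windows (3.77%). All 3 score genes with a window in the table, Tyr, Tyrp1 and Dct, held them. Pmel and Mlana, which gave most of the score difference, had no window, and neither had the called gene Sytl2. Of the melanosome genes outside the score, 18 had a window and 3 held the letters. Counted by window, as over all windows, this was 3 of 21 (14.3%). Gpm6a had no match in the window shown, the first of its 2, which says only that these letters are not there.

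Treatment labels were spread over both classes. The low class held 5 ControlIgG, 5 NonResponder and 3 PBS arrays, and the high class 5 ControlIgG, 7 NonResponder and 1 PBS array. The share of NonResponder arrays among ControlIgG and NonResponder arrays was 50% in the low and 58.3% in the high class, a difference of -8.33 percentage points (two-sided Fisher's exact test, p = 1). Its sign turned with classes of 10 (12.7 points) and of 17 arrays (0.513 points). Ranges of title numbers, called title series here, were less evenly spread: 8 of 13 score-low and 11 of 13 score-high arrays belonged to the larger series (two-sided Fisher's exact test, p = 0.378). The labels do not say what the series stand for, and the series entered the model as a fixed term. Both arrays of the PBS-only series were score-low, so these add to the spread and not to the difference.

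Of 18188 genes outside the score, 2 passed the test, and both were lower in score-low tumours: Sytl2, an effector of Rab27a that helps to hold melanosomes at the cell membrane, and Gpm6a, a membrane glycoprotein known from neurons. That is 0.0110% of genes tested (limma, Benjamini-Hochberg adjusted p under 0.05, two-sided, 13 against 13 arrays). No gene was called higher. At an unadjusted p under 0.05, 275 genes (1.51%) were higher and 455 (2.50%) lower in the low class. No gene had values that separated the classes completely. The test asks which genes vary with the score, since the score formed the groups.

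Sytl2 was 6.03 at the lowest, 7.02 at the median and 8.55 at the highest in score-low arrays, and 7.10, 7.66 and 8.80 in score-high arrays. In 7 of 13 score-low arrays it lay below every score-high array, and 1 PBS tumour of the low class had the second highest value of all. The difference was -0.96 ± 0.15 (SE), or 1.94-fold (limma adjusted p = 0.0316). Without the series term it was -0.69 ± 0.21 and did not pass (limma adjusted p = 0.590).

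Gpm6a was 4.40, 5.63 and 6.13 in score-low arrays at the lowest, median and highest, and 5.94, 6.60 and 7.31 in score-high arrays. The classes met only at their edges, with 11 score-low arrays below every score-high array. It differed by -1.05 ± 0.18, or 2.06-fold (limma adjusted p = 0.0439). Its other probe set differed by -0.79 as a plain difference of class means. Gpm6a did not pass with the treatment label as a further term (-1.04, limma adjusted p = 0.0551) or in the larger title series alone (-1.07, limma adjusted p = 0.123). With classes of 17 arrays it did not pass either (-0.97, limma adjusted p = 0.0673). All of these alternatives kept Sytl2 past the threshold. As plain differences of class means, without the series term, Gpm6a stood at -0.60 within ControlIgG and -1.08 within NonResponder arrays. Both labels showed the same direction. For Sytl2 these values were -0.88 and -0.79. Fits within each label with the series term gave -0.62 and -1.08 for Gpm6a, and -1.08 and -0.84 for Sytl2. The difference between the labels was tested as an interaction, and 0 of all genes passed in limma (437 had an unadjusted p under 0.05, and the lowest adjusted p was 0.906).

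Both calls depended on single arrays. With each of the 26 arrays left out in turn, Sytl2 was called in 15 fits and Gpm6a in 9, and between 0 and 4 genes were called. The 11 arrays whose removal left 0 calls were PBS replicate 1, ControlIgG replicates 1, 7, 10, 12 and 22, and NonResponder replicates 3, 5, 12, 16 and 23. The differences without the arrays rich in the muscle gene Ckm (2 score-low, 3 score-high) were -0.93 for Sytl2 and -1.01 for Gpm6a, and neither passed in limma (adjusted p = 0.342 for both).

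Other genes with small p-values had sizeable differences that missed the threshold. Gpr143, the melanosome receptor altered in ocular albinism, was 5.57, 6.04 and 7.34 in score-low and 6.17, 6.69 and 7.42 in score-high arrays, a difference of -0.80 ± 0.15 (limma adjusted p = 0.0887). Kit, the receptor for stem cell factor on which melanocytes depend, was 7.56, 8.26 and 8.64 against 8.25, 8.84 and 9.35, a difference of -0.63 ± 0.13 (limma adjusted p = 0.12). Oca2, a melanosomal membrane protein that sets the pH in which Tyr works, was 5.42, 5.59 and 5.94 against 5.63, 6.20 and 6.50, a difference of -0.50 ± 0.10 (limma adjusted p = 0.104). All 3 overlapped between the classes, with 9, 6 and 8 score-low arrays below every score-high array. Named after their values were seen, Prkcq, a protein kinase C, stood at -0.48 ± 0.09 (limma adjusted p = 0.0607) and Acot7, a thioesterase of fatty acid metabolism, at 0.33 ± 0.07 (limma adjusted p = 0.173). When the score was instead fitted as a slope over all 51 growing tumours, 15 genes were called, 7 higher and 8 lower with a lower score, among them Sytl2, Gpm6a, Gpr143, Oca2, Prkcq and Acot7.

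**Figure D2:**
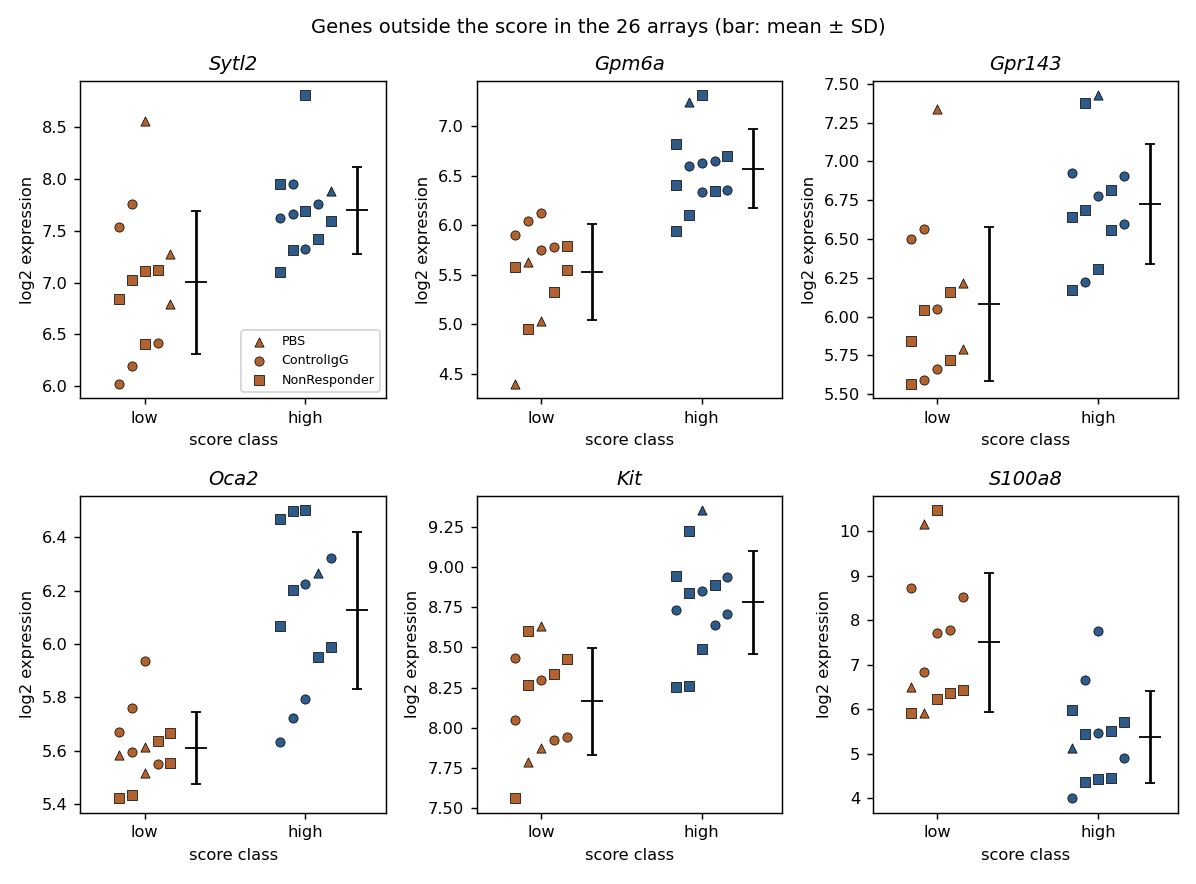
Log2 expression of 6 genes outside the score in the 13 score-low and 13 score-high arrays. Each point is 1 array, its shape gives the treatment label, and the bar shows mean ± SD. Sytl2 and Gpm6a passed the test, Gpr143, Oca2, Kit and S100a8 did not, and every panel shows overlap between the classes.

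Melanosome genes outside the score were mostly a little lower in score-low tumours. Of 24 listed genes 22 were measured, 1 was called lower (Sytl2), and 20 of 22 had a negative difference, with a median of -0.15 against -0.02 over all genes tested, of which 59.6% were negative. At an unadjusted p under 0.05, 7 of the 22 were lower and 0 higher (limma), beside 2.50% lower over all genes. The potassium-dependent exchanger Slc24a4 stood at -0.30 ± 0.07 (limma adjusted p = 0.387). Rab27a, the GTPase that tethers melanosomes, stood at -0.37 ± 0.14, and the channel Trpm1 at -0.32 ± 0.13, neither near the adjusted threshold (limma adjusted p = 0.9995 for both). As plain differences of class means, without the series term, the 4 probe sets of Trpm1 ranged from -0.22 (the one used) to 0.05.

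Regulators of the melanocyte lineage showed no shared direction. Of 15 measured, 0 were called, 6 were higher and 9 lower, with a median of -0.03. Mitf lay between 11.98 and 12.6 in score-low and between 12.1 and 12.8 in score-high arrays. The difference was -0.12 ± 0.07. As plain differences of class means, the Mitf probe set used stood at -0.18 and the other at -0.11. Sox10 stood at -0.07 ± 0.18 in the model with the series term, and its sign turned in 5 of 15 alternatives. As plain differences of class means, its 3 probe sets stood at -0.28 (the one used), -0.47 and -0.72. Beside Kit, Irf4, a factor that acts with Mitf on Tyr, stood at -0.48 ± 0.12 (limma adjusted p = 0.389) and Snai2, a factor of neural crest migration, at 0.22 ± 0.11. Among 17 other reported Mitf targets 0 were called, with a median of -0.01. The adhesion gene Cdh1 stood at -0.70 ± 0.20 (limma adjusted p = 0.665) and Cdk2, which neighbours Pmel in the genome, at -0.37 ± 0.10 (limma adjusted p = 0.470).

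The list of dedifferentiated or invasive melanoma held no called gene. Of 19 measured 0 were called and 13 were higher, with a median of 0.04. Axl, a receptor kinase of invasive melanoma, ranged from 8.27 to 11.3 in score-low and from 8.94 to 10.97 in score-high arrays (-0.13 ± 0.22). Ngfr, the neurotrophin receptor of neural crest cells, stood at 0.04 ± 0.08, and the neural crest list held 0 called genes of 12. The engineered drivers overlapped widely between the classes: Hgf stood at 0.15 ± 0.15, its receptor Met at -0.14 ± 0.08 and Cdk4 at -0.09 ± 0.06. Proliferation genes (0 called of 17, median -0.05) and oxidative phosphorylation genes (0 of 17, median -0.04) had narrow differences, from -0.17 to 0.03 and from -0.14 to 0.05.

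Hypoxia and glycolysis genes all had a positive difference in score-low tumours, and none passed the test. Of 14 measured, 14 were higher, 6 of them at an unadjusted p under 0.05 (limma), beside 1.51% over all genes, with a median of 0.36. Adm, a vessel-dilating peptide induced by low oxygen, was 7.82, 9.69 and 10.8 at the lowest, median and highest in score-low arrays, against 6.62, 8.34 and 9.34 (0.93 ± 0.29; limma adjusted p = 0.900). Egln3, an oxygen-sensing hydroxylase, was 7.86, 9.24 and 11.1 against 6.34, 8.08 and 9.02 (0.95 ± 0.33). For both genes 12 of 13 score-low arrays exceeded the score-high median, yet the ranges overlapped. The glucose transporter Slc2a1 stood at 0.49 ± 0.17 and the vessel growth factor Vegfa at 0.44 ± 0.16. Without the Ckm-rich arrays the median of the list was 0.18.

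A pair of neutrophil markers had the largest differences on the log2 scale of all genes tested, without passing. S100a8, a calcium-binding protein abundant in neutrophils, was 5.91, 6.85 and 10.5 in score-low arrays and 4.00, 5.45 and 7.76 in score-high arrays. All 13 score-low arrays lay above the score-high median, and 10 score-high arrays lay below every score-low array. The difference was 1.96 ± 0.50 (limma adjusted p = 0.448), and its partner S100a9 stood at 1.77 ± 0.50 (limma adjusted p = 0.665). Of the 10 neutrophil genes measured 9 were higher, but the others differed by at most 0.27, and the mean level of the list ran from 5.09 to 6.45 in score-low and from 4.86 to 5.75 in score-high arrays. In bulk tumour, fewer cells of a type and less RNA per cell cannot be told apart. Among 14 inflammatory genes, 0 were called. Cxcl2, a chemokine that attracts neutrophils, was 5.59, 7.30 and 11.4 against 4.73, 5.68 and 7.03 (1.63 ± 0.48; limma adjusted p = 0.761), Tnfaip3, a brake on NF-kappaB, stood at 0.32 ± 0.10 and the cytokine Il1b at 0.42 ± 0.18.

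Over all genes 9 differed by more than 2-fold, 8 of them higher in score-low tumours, and only Gpm6a, the 1 lower gene, passed the test. All 15 macrophage genes had a positive difference (median 0.25, 0 called and 0 at an unadjusted p under 0.05 in limma), and the mean level of the list ran from 7.35 to 10.7 in score-low and from 7.66 to 9.17 in score-high arrays. The arginine-degrading enzyme Arg1 spread most, from 6.39 to 12.3 in score-low and from 7.02 to 9.57 in score-high arrays. Endothelial genes were higher in 11 of 12 (median 0.18), and their median was -0.03 without the Ckm-rich arrays. Fibroblast genes showed no common direction, with 9 of 17 higher. As plain differences of class means, their medians were -0.44 within ControlIgG and 0.47 within NonResponder arrays. Skeletal muscle genes were higher in 11 of 14 (median 0.19), and their mean level reached 10.3 in score-low and 10.1 in score-high arrays. The part of these other cell types in the differences of the classes was not tested.

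Interferon and antigen presentation genes leaned to the lower side, again without calls. All 14 interferon gamma response genes had a negative difference (median -0.18, 0 at an unadjusted p under 0.05 in limma). As plain differences of class means, the list's medians were -0.51 within ControlIgG and -0.02 within NonResponder arrays. In the 30 other tumours of the same score range, described below, all members of this list and of the class I list had the opposite sign. The 12 class I genes were all negative (median -0.12), with medians of plain differences of -0.36 and 0.03 within these labels. Type I interferon genes were negative in 12 of 13 (median -0.19), 4 of them at an unadjusted p under 0.05, beside 59.6% negative and 2.50% lower at that p over all genes. The antiviral GTPase Mx2 was 6.72, 6.97 and 7.25 in score-low and 6.96, 7.33 and 7.46 in score-high arrays (-0.27 ± 0.06; limma adjusted p = 0.333), and the interferon-induced Ifit3 stood at -0.40 ± 0.15. T cell genes differed by a median of -0.06, with 8 of 12 negative, and cytotoxic genes by -0.14, with 12 of 15 negative. Cd274, which encodes PD-L1, ranged from 7.95 to 9.12 in score-low and from 8.02 to 8.84 in score-high arrays (-0.06 ± 0.11), and its receptor gene Pdcd1 stood at 0.06 ± 0.17. The other 13 lists, among them lysosome, Wnt, oxidative stress, B cell, mast cell, keratinocyte and adipocyte genes, had medians from -0.27 (class II antigen presentation) to 0.16 (adipocyte). Of all 32 lists examined, 31 held 0 called genes in limma.

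**Figure D3:**
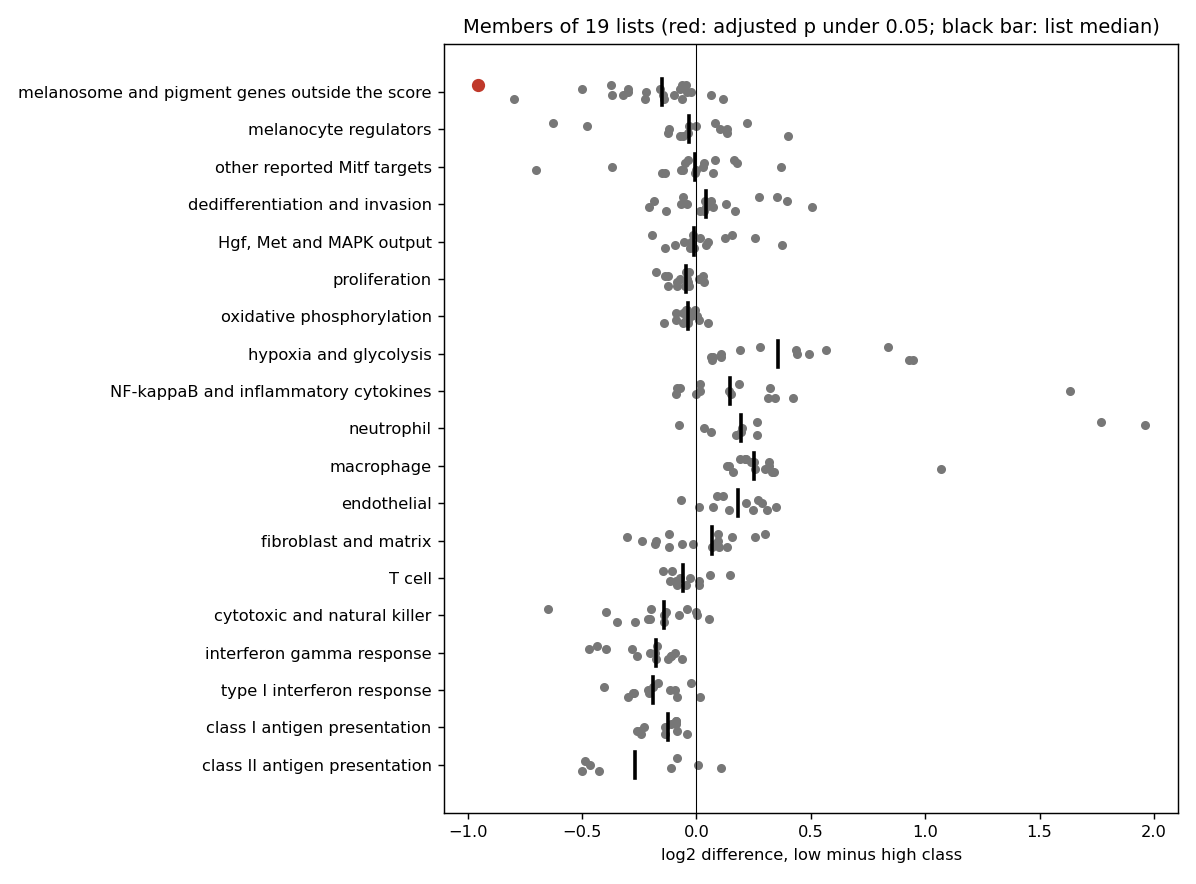
Differences between score-low and score-high arrays (log2, low minus high) for the measured members of 19 gene lists. Each point is 1 gene, the black bar is the list's median, and red marks the list member that passed the test, Sytl2. Melanosome genes lie mostly below 0 (median -0.15) and hypoxia genes all above 0 (median 0.36), with S100a8 (1.96), S100a9 (1.77) and Cxcl2 (1.63) far to the right.

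Tumours that the ranking did not use gave a check in other arrays. Over all 36 of them, 8760 genes (48.2%) followed the score (limma slope, adjusted p under 0.05, label and title series in the model). Their scores reached down to 6.95, and 6 of them lay under the lowest of the 51 ranked growing tumours (10.2). That count therefore covers a much wider span than the classes do. The 30 arrays within the growing tumours' range (22 Responder, 5 Relapse, 2 GrowthDelay, 1 Stabilization) called 12 genes (0.0660%), 2 higher and 10 lower with a lower score. This limit on the range was chosen after the data were seen.

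Of these 12 genes, 4 belong to the melanosome list of 22: Gpr143, Slc24a4, Trpm1 and Rab27a. Per log2 unit of lower score, Gpr143 fell by 2.62 (SE 0.29, limma adjusted p = 2.14e-05), Slc24a4 by 1.28 (adjusted p = 0.0303), Trpm1 by 1.03 (adjusted p = 0.0339) and Rab27a by 1.36 (adjusted p = 0.0394). Cdk2, the neighbour of Pmel, fell by 1.11 (adjusted p = 0.0273). The others that fell were the gap junction gene Gjb2 (-2.42), the tetraspanin Tspan10 (-1.84), the Wnt antagonist Frzb (-1.61), Mlip (-1.51) and Rapsn (-1.13). Gng2, a G protein subunit, rose by 1.28, and Pros1, which encodes protein S, rose by 0.65. All 12 had the same sign between the score-low and score-high classes, where 0 of them was called, and over all genes 59.2% had the same sign in both sets of arrays. The sets share no array.

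The genes called between the classes did not pass in the 30 other tumours of that range. Per unit of lower score Sytl2 stood at -0.94 ± 0.37 (limma adjusted p = 0.268) and Gpm6a at -0.99 ± 0.37 (limma adjusted p = 0.240), against class differences that amount to -2.02 and -2.21 per unit. Over all 36 other tumours the slope of Gpm6a was -0.44 (limma adjusted p = 0.000655) and that of Sytl2 0.01 (limma adjusted p = 0.964). Gpr143 had -1.69 per unit between the classes, -2.62 in the 30 tumours of that range and -0.79 over all 36 (limma adjusted p = 2.95e-06). Kit stood at -1.33 per unit between the classes and at -0.19 ± 0.29 in the 30 tumours. The 10 genes with the smallest p between the classes all kept their sign in the 30 tumours. Among the melanocyte regulators, 13 of 15 had the same sign in the 30 tumours, and Irf4 did not. Irf4 stood at -1.01 per unit between the classes and at 0.38 ± 0.31 in the 30 tumours (limma adjusted p = 0.601). Over all 36 its slope was 0.21 (limma adjusted p = 0.0116). Whether slopes differ between the sets was not tested. 

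Lists that leaned to one side between the classes did so in the 30 other tumours in some cases and not in others. Hypoxia genes had the same sign in 14 of 14 (median slope 0.54 per unit of lower score), macrophage genes in 14 of 15 (1.57), neutrophil genes in 9 of 10 (0.80) and melanosome genes in 17 of 22 (-0.25). Interferon gamma genes had the same sign in 0 of 14 (median slope 1.01) and class I genes in 0 of 12 (0.37), so every member of both lists was opposite to its sign between the classes. Type I interferon genes had the same sign in 4 of 13 (0.20), T cell genes in 4 of 12 (1.99), cytotoxic genes in 5 of 15 (2.04) and skeletal muscle genes in 2 of 14 (-3.10). Of these lists only the melanosome genes held genes called in limma in the 30 tumours (2493 of all genes had an unadjusted p under 0.05).

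**Figure D4:**
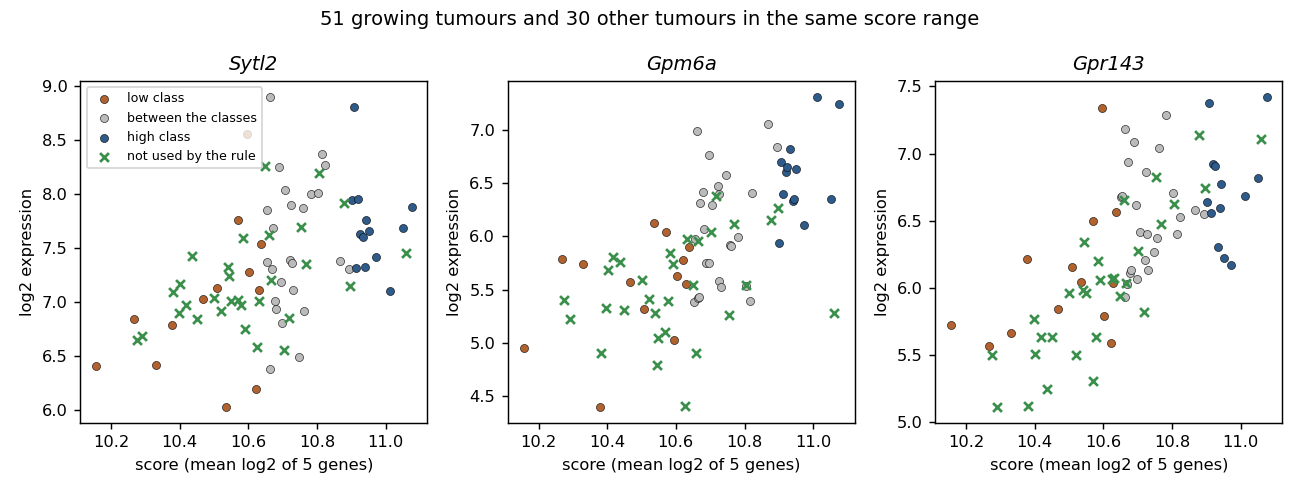
Log2 expression of Sytl2, Gpm6a and Gpr143 against the score in 51 growing tumours (circles, coloured by class) and 30 other tumours in the same score range (crosses). Each symbol is 1 array. Gpr143 is lower at lower scores in both sets, and passed in the other tumours with a slope of -2.62 per unit of lower score, while Sytl2 and Gpm6a did not pass there.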

How the data were processed

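RNA from subcutaneous tumours was amplified, labelled with biotin and hybridised to Affymetrix mouse arrays, 1 array per sample. The deposited values are log2 expression, normalized by the authors with RMA per the submitters' processing notes, which also name limma; versions are not given in the sources used here. Array medians lay between 5.71 and 5.90. Depth has no counterpart on arrays. The SE of a difference depends on the number of arrays and on how far a gene varied among them.

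Of 45101 probe sets, 34945 carried 1 gene symbol; 932 carried several, 9160 were not listed and 64 were controls, and none of these was used. Where a gene had several probe sets, the one with the largest average across the 90 arrays was kept, which left 18193 genes. The 5 score genes were left out, and 18188 were tested with limma 3.58.1 in R 4.3.3 (lmFit, eBayes, title series as a fixed term, Benjamini-Hochberg adjustment, two-sided). The same genes were fitted as a slope on the score in the other tumours with Glycam1 under 8, with label and title series as terms; the sign was turned so that positive means higher at a lower score. Labels were compared with Fisher's exact test (scipy 1.17.1). The procedure was tested on simulated data.

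The rule for named genes took from the called genes up to 12 with the largest rise and 12 with the largest fall, given the same sign in every title series holding at least 2 arrays of each class, then from each list up to 4 genes of lowest p, and always Mitf, Sox10, Hgf, Met, Cdk4, Axl, Ngfr, Cd274 and Pdcd1. Antigen receptor segments and transcripts without a gene name were passed over. Genes called within the other tumours, Prkcq and Acot7 were named after their values were seen. The members and the 32 gene lists were chosen with earlier results of these data known. Alternatives covered the series term, the treatment label, dim genes, scaling, class size, arrays left out, the probe set and array weights. Promoter windows came from RefSeq.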

Additional observations from a re-analysis of the deposited data

Results flagged for a closer look

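Of 40 sets of values tested for a sample far from the rest of its class and label, 2 stood out; chance alone gives about 1 in 20. S100a8 was 10.5 in the score-low NonResponder replicate 16, against 5.91 to 6.45 in the other 4 score-low NonResponder arrays. Adm was 7.08 in the score-high ControlIgG replicate 1, against 8.34 to 8.77 in the other 4 score-high ControlIgG arrays.

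The tumour left out before ranking, NonResponder replicate 14, had Glycam1 at 11.9, against 4.02 to 5.16 in the other growing tumours. Its score was 9.001, below every ranked tumour, so it would have been the lowest member of the score-low class.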

How the results depend on the processing

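Sytl2 and Gpm6a were lower in score-low tumours under all 15 alternatives, and were called in 9 and 7 of them. Against 2 calls in the main model, limma called 1 gene with the treatment label as a further term, 1 with classes of 17, 5 (3 higher, 2 lower) in the larger title series alone, 15 (7 higher, 8 lower) with a slope over 51 tumours and 16 (6 higher, 10 lower) with array weights. It called 0 with classes of 10 (997 genes at an unadjusted p under 0.05), 0 without Ckm-rich arrays (704), 0 in NonResponder (733) and 0 in ControlIgG arrays alone (613), and 0 with the high-Glycam1 tumour kept (1091). Leaving out each array in turn gave 0 to 4. Dropping the series term, dropping dim genes, quantile normalization or another probe set gave 3, and median centring 2. In the other tumours the count of 8760 became 3122 in the larger series alone and 12 within the growing tumours' score range; the other 5 alternatives gave 7461 to 9406. The difference in NonResponder share of -8.33 percentage points became 12.7 with classes of 10 and 0.513 with classes of 17. The cause of these changes was not tested, beyond the fewer arrays or narrower range that an alternative uses by its construction. No paired analysis was possible because the labels name no pairs of arrays. The titles carry no replicate numbers, and those used here count the arrays of each label in the order of the samples.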
